A study of Mus musculus with 9 samples.

Results

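Livers from mice given recombinant human cytoglobin (rhCYGB) for 5 weeks were compared with livers from mice given it for 2 weeks. These are 6 of the 9 libraries of the study, taken by their labelled treatment alone, and the comparison covered the 14731 of 24532 genes that passed a count filter. All mice were wild-type C57BL/6, and all received thioacetamide (TAA), a liver toxin, by intraperitoneal injection at rising doses over 10 weeks. In the 2-week group (replicates 17, 18 and 19) rhCYGB at 2 mg/kg was injected into the tail vein 2 times a week during the last 2 weeks of TAA. In the 5-week group (replicates 23, 27 and 28) the same dose was given during the last 5 weeks. Controls (replicates 12, 13 and 14, called TAA) received saline, and livers were taken 2 days after the last rhCYGB dose. Livers without TAA were not analysed here, so every value describes an injured liver. The labels give neither the age of the mice nor the time of day at which livers were taken. Since no label ties a replicate number to its own mouse, p-values reflect the spread between these samples, which may be technical.

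Cytoglobin is a globin that binds oxygen and reacts with nitric oxide, and in the liver it is made mainly by stellate cells, the cells that lay down scar matrix. TAA is turned into its toxic form by the cytochrome Cyp2e1 in hepatocytes around the central vein, and repeated dosing leaves fibrosis. The liver also follows a daily cycle, in which the factors encoded by Arntl and Clock switch on genes that later repress them.

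The 6 rhCYGB libraries held 56526492 to 87289945 estimated reads. Hepatocyte markers (30 genes, among them Alb and Apoa1) summed to 185955 to 241701 CPM (read counts relative to library size, scaled by the TMM method) at 2 weeks and 169464 to 228977 at 5 weeks. Of 9 pancreas genes, Prss1, Prss2, Cela3b, Pnlip, Cpa1 and Amy2a5 had no reads in any of the 6, Ctrb1 had at most 6 and Cela2a at most 20 in a library. Cela2a was at 0, 0.127 and 0 CPM after 2 weeks and 0.170, 0.386 and 0.244 CPM after 5 weeks, without overlap. Cela1 had up to 1022 reads and overlapped between the groups. Replicate 23 lay far from the others on the first principal component (78.8, against -44.1 to 19.9 in the other 5 rhCYGB libraries), which held 32.3% of the variance. Mouse Cygb RNA, which is no measure of the injected protein, overlapped between the groups, at 15.5, 21.2 and 14.1 CPM after 2 weeks and 8.93, 21.7 and 21.6 CPM after 5 weeks.

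Levels also followed transcript length to a different degree in each library. Spearman's rho between a gene's deviation from its mean level and its transcript length, taken across genes, which are not independent replicates, was -0.45, -0.40 and -0.20 in the 2-week libraries. It was 0.42, -0.38 and 0.32 in 5-week replicates 23, 27 and 28, so replicate 27 had the sign of the 2-week group. Between the groups, the median log2 change, 5 weeks minus 2 weeks, went from -0.40 for 1253 genes under 1000 bases to 0.27 for 4039 genes over 4000 bases. Changes are therefore also given with this trend removed in each library ("length-adjusted"). What part the trend has in any single gene's difference was not tested.

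**Figure D1:**
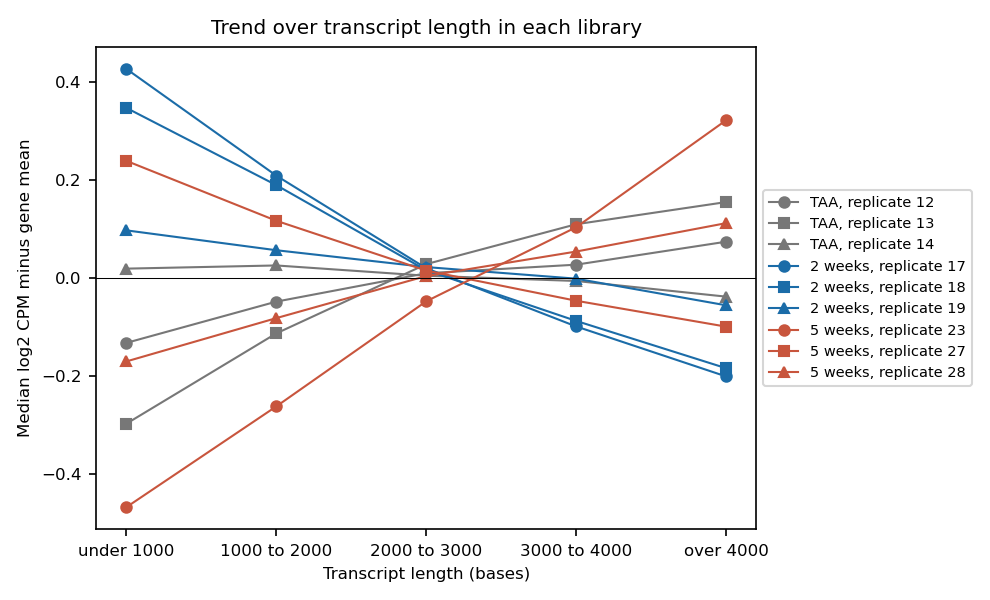
Median deviation of log2 CPM from each gene's mean over 9 libraries (vertical axis) in 5 classes of transcript length in bases (horizontal axis), 1 line a library. The 2-week lines fall from left to right, the 5-week lines of replicates 23 and 28 rise, and the line of 5-week replicate 27 falls.

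Of 14731 genes, 3 passed the test. Mcm10 and Abcd2 rose from 2 to 5 weeks and Tjp3 fell, at an adjusted p under 0.05 in edgeR's quasi-likelihood test. These 3 are 0.0204% of the genes tested (0.0136% higher, 0.00679% lower). Groups that did not overlap at all were far more common: all 3 of the 5-week libraries lay above all 3 of the 2-week libraries for 1601 genes (10.9%) and below them for 1507 (10.2%).

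Mcm10, a factor that helps start and move the DNA replication fork (gene ID 70024, mm10 chromosome 2, 4990724 to 5012791), stood at 9.40, 11.0 and 12.6 CPM after 2 weeks and at 65.4, 41.9 and 56.4 CPM after 5 weeks. Each 5-week library was above every 2-week library, and the controls, at 38.1, 31.9 and 27.2 CPM, lay between the groups. The rise was 4.96-fold (log2 change 2.31 ± 0.20, SE, n = 3 per group, edgeR adjusted p = 0.00835), and length-adjusted it was 2.18 ± 0.16 (adjusted p = 0.00163). Its reads were assigned to different transcripts in different libraries. In the 2-week libraries a 3857-base transcript held 453, 870 and 685 estimated reads and a 3494-base transcript 2, 0 and 4. In 5-week replicates 23 and 28 the 3494-base transcript held 4237 and 3703 reads. Replicate 27 had the same transcript as the 2-week group, with 2170 reads. The controls were split as well. Replicates 12 and 14 had 2343 and 1983 reads on the 3494-base transcript, and replicate 13 had 2171 on the 3857-base transcript.

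Abcd2, a transporter that carries very long chain fatty acids into peroxisomes (gene ID 26874, chromosome 15, 91145871 to 91191807), was at 7.60, 7.69 and 6.83 CPM after 2 weeks and at 18.9, 17.1 and 16.0 CPM after 5 weeks. The controls were above both groups, at 21.1, 25.9 and 23.4 CPM. The rise was 2.35-fold (1.23 ± 0.13, adjusted p = 0.0171). With a transcript of 5540 bases it lay in the class whose median was 0.27, and the length-adjusted change was 0.97 ± 0.14 (adjusted p = 0.0627).

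Tjp3, the tight junction scaffold ZO-3 (gene ID 27375, chromosome 10, 81273188 to 81291581), was at 44.0, 45.6 and 41.4 CPM after 2 weeks and at 20.9, 22.6 and 18.1 CPM after 5 weeks. The controls, at 28.4, 29.1 and 28.1 CPM, again lay between. It fell by 1.09 ± 0.12 on the log2 scale (adjusted p = 0.0171), and length-adjusted by 1.15 ± 0.12 (adjusted p = 0.0234). Its locus shares a short end with Apba3, a gene whose log2 change was -0.53, and whether reads were counted by strand is not given in the sources used here.

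The calls depended on which libraries were fitted. The Mcm10 call was lost without 2-week replicate 17 (adjusted p = 0.0544) or 18 (adjusted p = 0.0639). Those of Abcd2 and Tjp3 were lost without any 1 of the TAA libraries, 2-week replicate 17 or 18, or 5-week replicate 23, and that of Tjp3 also without 5-week replicate 28 (edgeR adjusted p from 0.0543 to 0.119). With only the 6 rhCYGB libraries, no gene was called (edgeR, 1370 higher and 1081 lower at an unadjusted p under 0.05). Without 5-week replicate 27, edgeR called 1889 genes, whose median length was 4749 bases for those higher and 1301 bases for those lower. With the length trend removed as well, the number was 13, all among the 1889.

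**Figure D2:**
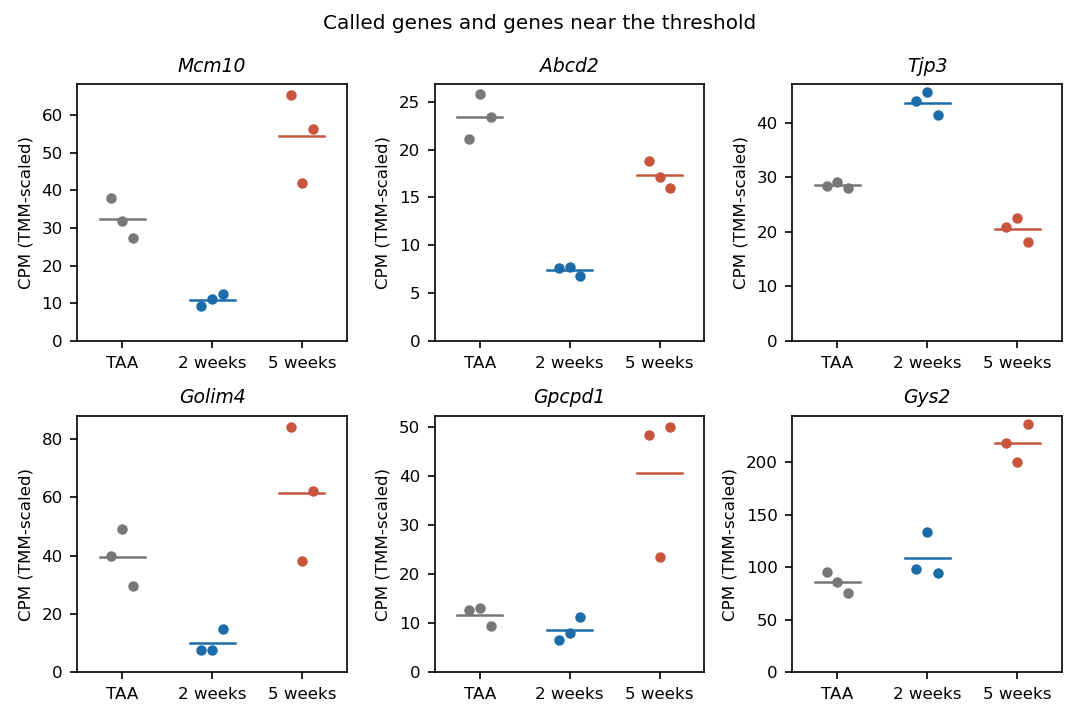
TMM-scaled CPM (vertical axes, from 0) of 6 genes in the TAA, 2-week and 5-week libraries, 1 point a library and a bar for the mean. Mcm10, Abcd2, Golim4, Gpcpd1 and Gys2 have all 5-week points above all 2-week points, and Tjp3 has them below.

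The other 27 leading genes, taken by lowest p in each direction among genes with groups apart and at least 1 CPM on average, missed the threshold. Their edgeR adjusted p-values were up to 0.124. Of the 15 leading genes in the higher direction, the TAA libraries lay between the groups for 5, above both for 1, overlapped the 2-week group for 6 and the 5-week group for 3. Of the 15 in the lower direction the numbers were 6 between, 6 overlapping 2 weeks and 3 overlapping 5 weeks. Golim4, which encodes a Golgi membrane protein, was at 7.52, 7.68 and 14.7 CPM after 2 weeks and 84.0, 38.0 and 62.3 CPM after 5 weeks (log2 change 2.62 ± 0.36, adjusted p = 0.0645). Gpcpd1, which encodes an enzyme that breaks down glycerophosphocholine, was at 6.57, 7.96 and 11.4 CPM and 48.4, 23.6 and 50.1 CPM (2.24 ± 0.31, adjusted p = 0.0645). In both genes replicate 27 was the lowest of the 5-week libraries and still lay above the 2-week group. The length-adjusted fit called both, at adjusted p-values of 0.0441 and 0.0442.

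Several other genes near the threshold act in metabolism or in the cell cycle. Gys2, the liver glycogen synthase, was at 98.4, 134 and 94.2 CPM after 2 weeks and 218, 200 and 236 CPM after 5 weeks (1.00 ± 0.16, adjusted p = 0.109). Nmrk1, a kinase that makes NAD from nicotinamide riboside, had a log2 change of 1.17 ± 0.18 (adjusted p = 0.109), and Mms22l, which acts in repair at stalled replication forks, one of 1.08 ± 0.19 (adjusted p = 0.124). In the other direction, Siglece, a sialic acid receptor of myeloid cells, was at 5.43, 6.37 and 8.30 CPM after 2 weeks and 2.22, 3.01 and 2.27 CPM after 5 weeks (-1.42 ± 0.23, adjusted p = 0.109).

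**Figure D3:**
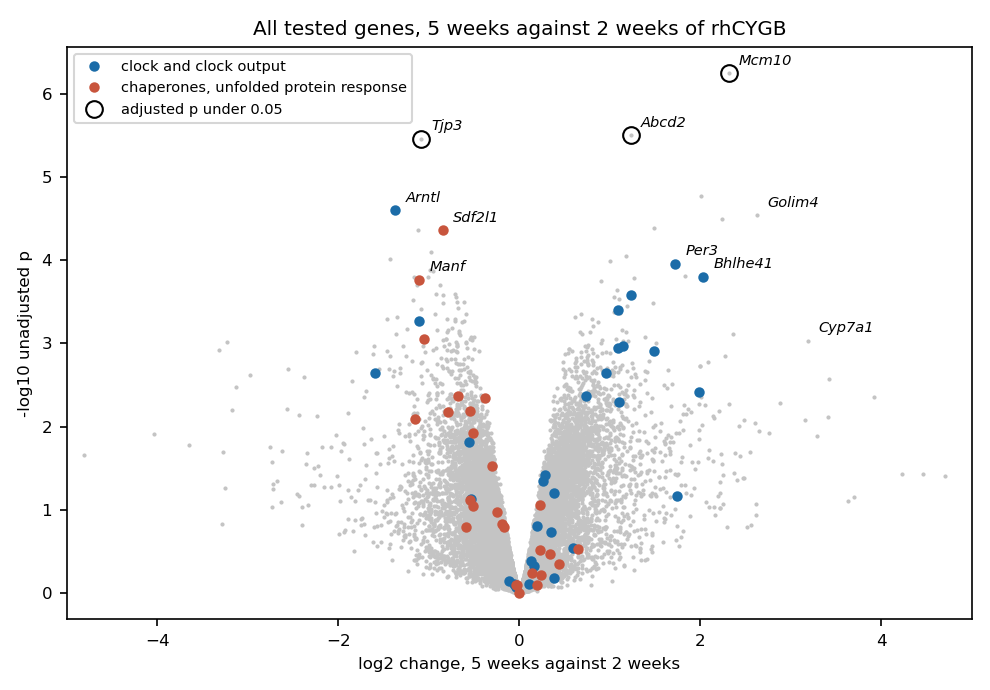
Log2 change, 5 weeks minus 2 weeks (horizontal axis), against -log10 of the unadjusted p (vertical axis) for 14713 of the 14731 tested genes, the other 18 lying beyond the axis. Mcm10, Abcd2 and Tjp3 are ringed, clock genes are blue and chaperone genes are red.

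Many circadian clock genes had groups that did not overlap. In the daily cycle, the proteins of Arntl, Clock and Npas2 activate genes through the E-box. Per and Cry proteins repress them, and receptors such as those of Nr1d1, Nr1d2 and Rora control Arntl itself. Of 14 core clock genes tested, 5 were higher and 3 lower at 5 weeks without overlap (35.7% and 21.4%, against 10.9% and 10.2% of all genes). Of 16 output genes, which the clock drives, 9 were higher and 1 lower (56.3% and 6.25%). The output genes' median log2 change was 0.91 (length-adjusted 0.68), against -0.01 for all genes tested. That of the core clock genes was 0.24, and only 0.07 length-adjusted. The edgeR fit called none of the 30, with 13 higher and 4 lower at an unadjusted p under 0.05 (12.7% and 10.5% of all genes were). DESeq2 called 11 higher and 3 lower (3.69% and 2.24% of all genes with an adjusted p), and limma-voom with sample quality weights 14 and 5 (12.4% and 14.6% of all genes).

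Arntl, Npas2, Cry1 and Nfil3 lay lower at 5 weeks. Arntl (gene ID 11865, chromosome 7, 113207465 to 113314126), the partner of Clock, was at 11.2, 8.15 and 10.6 CPM after 2 weeks and at 3.92, 4.15 and 3.50 CPM after 5 weeks. The controls, at 9.99, 7.29 and 7.87 CPM, overlapped the 2-week group only. The log2 change was -1.37 ± 0.18 (edgeR adjusted p = 0.0645), and the length-adjusted fit called it (-1.41 ± 0.18, adjusted p = 0.0455). Npas2, which can stand in for Clock, was at 0.847, 1.00 and 1.24 CPM and at 0.278, 0.541 and 0.213 CPM (-1.59 ± 0.39, adjusted p = 0.143). Cry1, a repressor, was at 13.4, 8.45 and 13.4 CPM and at 8.08, 8.39 and 7.41 CPM (-0.56 ± 0.19, adjusted p = 0.178), with a gap between the groups of less than 0.1 CPM. Nfil3, which encodes a repressor acting at the D-box, was at 30.6, 22.7 and 28.7 CPM and at 15.6, 11.5 and 10.9 CPM (-1.11 ± 0.22, adjusted p = 0.136). It was the only 1 of these 4 genes whose TAA level (12.1 to 20.6 CPM) overlapped the 5-week group.

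The repressor genes Per2, Per3 and Nr1d2 and the activators at the D-box had the opposite sign. Per3 was at 6.53, 11.9 and 10.2 CPM after 2 weeks and at 39.1, 25.9 and 29.6 CPM after 5 weeks (1.72 ± 0.28, adjusted p = 0.109, length-adjusted 1.44). Per2 was at 8.22, 12.9 and 16.3 CPM and at 23.6, 21.7 and 27.7 CPM (0.96 ± 0.23, adjusted p = 0.142), and Nr1d2, which encodes the Arntl repressor REV-ERB beta, at 34.9, 39.2 and 47.6 CPM and 119, 60.3 and 80.8 CPM (1.10 ± 0.24, adjusted p = 0.138). Both groups were fully apart in each of these genes.

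Among the activators at the D-box, Dbp was at 51.2, 113 and 61.1 CPM and at 124, 200 and 160 CPM (1.10 ± 0.31, adjusted p = 0.163). Tef was at 55.3, 79.4 and 80.5 CPM and at 186, 129 and 142 CPM (1.09 ± 0.21, adjusted p = 0.134), and Hlf had a log2 change of 0.74 ± 0.20 (length-adjusted 0.45). The highest 2-week value of Dbp, 113 CPM in replicate 18, came close to the lowest 5-week value.

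Of the 16 output genes, 6 overlapped between the groups: Bhlhe40, Noct, Cys1, Avpr1a, Lonrf3 and Rgs16. Avpr1a, a vasopressin receptor gene, was at 5.56, 4.64 and 6.39 CPM after 2 weeks and 4.92, 3.40 and 3.11 CPM after 5 weeks, and was 1 of the 2 output genes that limma-voom called lower, with Nfil3. Others were higher without overlap. Bhlhe41, a repressor at the E-box, was at 0.971, 1.37 and 0.675 CPM after 2 weeks and 5.99, 2.78 and 3.67 CPM after 5 weeks (2.03 ± 0.34, adjusted p = 0.109). Ciart, which represses Clock and Arntl activity, was at 3.62, 11.1 and 6.31 CPM and 19.8, 18.1 and 21.3 CPM (1.49 ± 0.33, adjusted p = 0.138). Wee1, a kinase that holds back entry into mitosis, was at 7.19, 6.89 and 10.1 CPM and 22.4, 14.7 and 19.5 CPM (1.23 ± 0.22, adjusted p = 0.124). Usp2 and Upp2 had log2 changes of 1.15 ± 0.25 and 1.98 ± 0.53. Nr1d1 did not share the pattern of Nr1d2: it stood at 99.5, 114 and 68.7 CPM after 2 weeks and 91.7, 99.5 and 83.4 CPM after 5 weeks, and the groups overlapped. Per1, Clock, Rora, Csnk1d and Csnk1e also overlapped.

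Relative to the saline controls, these differences lay mostly on the 5-week side. Of the 18 clock genes with groups apart, the TAA libraries overlapped only the 2-week group for 14 (11 higher and 3 lower at 5 weeks). Among the others, the controls lay between the groups for Bhlhe41, overlapped both for Hlf, and overlapped the 5-week group for Nfil3. The 5-week libraries ranked differently from gene to gene: replicate 23, the library apart on the first component, was the highest of the 6 for 7 of 14 core and 8 of 16 output genes, against 32.4% of all genes.

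**Figure D4:**
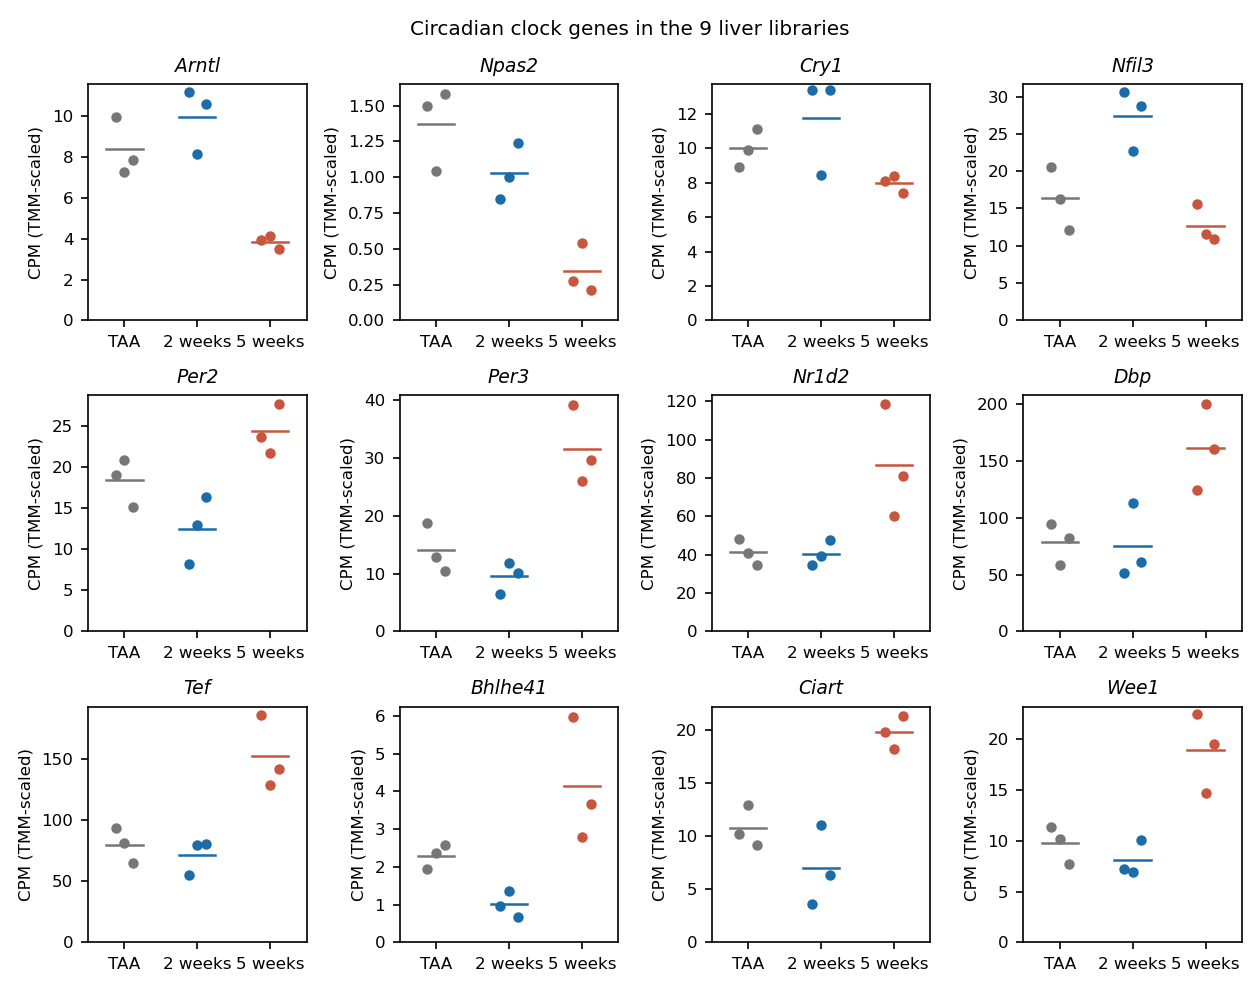
TMM-scaled CPM (vertical axes, from 0) of 12 clock genes in the TAA, 2-week and 5-week libraries, 1 point a library and a bar for the mean. Arntl, Npas2, Cry1 and Nfil3 are lower at 5 weeks than at 2 weeks in every library, and the other 8 are higher in every library.

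Promoters of clock genes in both directions are shown because the clock acts through 3 short elements in them. RefSeq promoters (GRCm38.p6) were found for 25 of the 30 tested clock genes. The 250 bases before the start site were searched on both strands for CACGTG (E-box), TTANGTAA (D-box) and TNGGTCA, N being any base. TNGGTCA is a loose form of the core of the element bound by the REV-ERB receptors, so a match need not be that element. A single promoter was searched for each clock gene, although some have several. A promoter whose start site matched a deposited transcript was preferred, and the start used for Per1 matched none. Capitals mark every match.

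Arntl, chr7:113207215-113207464, plus strand: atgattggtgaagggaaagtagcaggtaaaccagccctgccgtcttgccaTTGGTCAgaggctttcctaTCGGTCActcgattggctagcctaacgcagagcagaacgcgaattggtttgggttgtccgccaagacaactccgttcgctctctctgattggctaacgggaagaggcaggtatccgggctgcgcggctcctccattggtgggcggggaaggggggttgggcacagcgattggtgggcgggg
Nfil3, chr13:52981040-52981289, minus strand: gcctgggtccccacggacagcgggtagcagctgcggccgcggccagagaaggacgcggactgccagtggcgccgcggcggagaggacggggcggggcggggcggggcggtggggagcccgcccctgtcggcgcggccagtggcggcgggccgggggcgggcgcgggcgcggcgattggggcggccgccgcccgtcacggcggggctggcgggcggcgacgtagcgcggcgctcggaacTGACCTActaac
Per3, chr4:151044666-151044915, minus strand: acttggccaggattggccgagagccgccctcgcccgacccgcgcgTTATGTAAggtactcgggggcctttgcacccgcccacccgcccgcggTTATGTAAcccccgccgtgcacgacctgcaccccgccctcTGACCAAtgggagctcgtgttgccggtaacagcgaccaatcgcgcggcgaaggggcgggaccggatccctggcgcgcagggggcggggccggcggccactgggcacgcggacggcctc
Ciart, chr3:95882229-95882478, minus strand: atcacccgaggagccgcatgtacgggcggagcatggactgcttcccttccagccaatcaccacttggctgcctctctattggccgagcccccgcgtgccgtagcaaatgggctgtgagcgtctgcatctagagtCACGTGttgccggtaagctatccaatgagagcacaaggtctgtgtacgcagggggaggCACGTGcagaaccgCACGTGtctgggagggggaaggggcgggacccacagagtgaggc
Tef, chr15:81802423-81802672, plus strand: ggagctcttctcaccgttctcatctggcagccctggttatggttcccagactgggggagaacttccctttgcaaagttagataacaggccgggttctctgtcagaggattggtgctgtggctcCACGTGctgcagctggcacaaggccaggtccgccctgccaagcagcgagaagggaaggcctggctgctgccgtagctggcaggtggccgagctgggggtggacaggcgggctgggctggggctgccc

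The Arntl promoter, of a gene lower at 5 weeks, held TNGGTCA 200 and 181 bases before the start. That of Nfil3, also lower, held it 12 bases before the start. The letters were TTGGTCA and TCGGTCA in Arntl and, on the other strand, TAGGTCA in Nfil3. Among the genes higher at 5 weeks, Per3 held D-boxes 205 and 158 bases and TNGGTCA (as TTGGTCA, on the other strand) 118 bases before the start. Ciart held E-boxes 116, 58 and 44 bases before its start and Tef 1 at 127. Over the clock genes with a promoter, TNGGTCA was found in 2 of 4 that were lower, 2 of 11 that were higher and 0 of 10 that overlapped. It was found in 9.19% of all 32851 promoters in the table. The E-box was found in 1 of 4, 3 of 11 and 2 of 10 (6.02% of all promoters), and the D-box in 0 of 4, 1 of 11 and 0 of 10 (2.06%). The E-box reads the same on both strands and was counted once a site, and a match in these letters is a description, not a binding site.

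Genes of protein folding in the endoplasmic reticulum lay lower after 5 weeks in 11 of 27 cases. These chaperones and their partners are induced when unfolded protein builds up there, and the list holds cytosolic heat shock proteins as well. These 11 did not overlap (40.7%, against 10.2% of all genes), and 1 gene, Atf4, was higher without overlap. The median was -0.25, and -0.28 length-adjusted. The edgeR fit called none, with 10 lower and 0 higher at an unadjusted p under 0.05 (10.5% and 12.7% of all genes). DESeq2 and limma-voom with sample quality weights each called 8, all lower (2.24% and 14.6% of all genes were called lower).

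Sdf2l1, a cofactor of the chaperone BiP, was at 42.3, 38.9 and 42.8 CPM after 2 weeks and at 23.5, 24.3 and 21.2 CPM after 5 weeks, with the controls between (at most 37.3 CPM) (-0.85 ± 0.12, adjusted p = 0.0645). Its transcript is 1108 bases long, and the length-adjusted change was -0.51. Manf, a protein that is retained with BiP, was at 210, 194 and 170 CPM and at 63.1, 104 and 100 CPM (-1.11 ± 0.19, adjusted p = 0.109, length-adjusted -1.06). Creld2, a secreted stress protein, and Hyou1, a BiP exchange factor, had log2 changes of -1.05 ± 0.22 and -0.67 ± 0.18. Hspa5, which encodes BiP, was at 962, 879 and 1172 CPM and 575, 697 and 790 CPM (-0.55 ± 0.16, adjusted p = 0.169). The partner chaperones Hsp90b1, Pdia3 and Dnajc3 overlapped between the groups, as did Ddit3, Xbp1 and Herpud1, so the members of the response did not all separate.

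Bile acid genes separated in both directions. Of 21 tested, 7 were higher and 4 lower at 5 weeks without overlap (33.3% and 19%, against 10.9% and 10.2% of all genes). At an unadjusted p under 0.05 there were 9 and 3 (12.7% and 10.5% of all genes), and DESeq2 called 4 and 2 (3.69% and 2.24% of all genes). In 5-week replicate 23, 13 of the 21 were at their highest of the 6 rhCYGB libraries (32.4% of all genes were). Cyp7a1, the rate-limiting enzyme of bile acid synthesis, was at 4.34, 8.49 and 6.64 CPM after 2 weeks and at 115, 14.2 and 49.3 CPM after 5 weeks. The 5-week values spread widely, and the controls, at 31.3, 55.2 and 19.1 CPM, lay within their range and above the 2-week group. The log2 change was 3.19 ± 0.68 (adjusted p = 0.138). It was 2.29 without 5-week replicate 23 and 3.66 without replicate 27 (adjusted p = 0.041). Nr0b2, which encodes SHP, a repressor of Cyp7a1, was at 125, 147 and 65.7 CPM and at 38.6, 50.2 and 35.5 CPM (-1.44 ± 0.35, adjusted p = 0.142). Nr1h4, the bile acid receptor FXR, had a log2 change of 1.27 ± 0.33, and the export pump gene Abcc2 and the uptake transporter gene Slco1b2 had changes of 0.62 ± 0.14 and 0.92 ± 0.29.

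Cholesterol synthesis genes were mostly highest in 5-week replicate 23. Of 25, 16 were highest in that library (32.4% of all genes were). Without overlap, 8 were higher and 2 lower (32% and 8%, against 10.9% and 10.2% of all genes). Hmgcs1, which makes the precursor of mevalonate, was at 112, 110 and 110 CPM after 2 weeks and at 285, 124 and 163 CPM after 5 weeks. Its log2 change was 0.78 ± 0.26 (adjusted p = 0.177), and 0.37 without replicate 23. Sqle, squalene epoxidase, was at 37.7, 38.8 and 37.3 CPM and at 83.8, 39.5 and 47.3 CPM, and Idi1 had a log2 change of 0.97 ± 0.27, or 0.52 without replicate 23. Mvd, of the same pathway, was lower, at 23.4, 32.0 and 18.8 CPM and 16.0, 14.4 and 10.8 CPM.

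Genes of glucose handling and of the pericentral zone included several with groups apart. Txnip, which binds thioredoxin and responds to glucose, was at 87.0, 78.7 and 84.6 CPM after 2 weeks and 168, 155 and 291 CPM after 5 weeks (1.29 ± 0.32, adjusted p = 0.143). Slc2a2, the liver glucose transporter, was at 131, 145 and 150 CPM and 301, 187 and 231 CPM (0.75 ± 0.18, adjusted p = 0.142). Over the lists that hold them, 2 of 15 glucose-sensing and 2 of 20 glycogen genes were higher and 1 in each was lower, close to the shares of all genes.

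Of 20 pericentral genes and targets of Wnt signalling, 6 were higher and 1 lower without overlap (30% and 5%, against 10.9% and 10.2% of all genes). Cyp2e1, which activates TAA, was at 1208, 1110 and 1182 CPM after 2 weeks and 1512, 2152 and 1780 CPM after 5 weeks (0.64 ± 0.20, adjusted p = 0.175). The Wnt feedback genes Axin2 (0.97 ± 0.27), Rnf43 (0.49 ± 0.12) and Znrf3 (0.79 ± 0.25) had positive changes and Nkd1, another of them, a negative one (-0.74 ± 0.23). None of these 5 was called by edgeR.

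Cell cycle genes outside Mcm10, which was not on the list, leaned to the 5-week side. Of 40, 9 were higher and 0 lower without overlap (22.5% and 0%, against 10.9% and 10.2% of all genes), and the median was 0.21, or 0.14 length-adjusted. At an unadjusted p under 0.05 in edgeR there were 8 and 0 (12.7% and 10.5% of all genes). DESeq2 called 5 and 0 (3.69% and 2.24%) and limma-voom with quality weights 9 and 0 (12.4% and 14.6%). Mcm4, a subunit of the replicative helicase, was at 3.51, 4.14 and 5.49 CPM after 2 weeks and 8.21, 6.76 and 8.02 CPM after 5 weeks, with the controls at 10.4, 12.4 and 8.16 CPM. Cdc6, which loads that helicase, was at 0.806, 0.861 and 0.913 CPM and 1.31, 1.14 and 1.36 CPM, with the controls at 2.58 to 2.96 CPM. Mki67, a general marker of cycling cells, overlapped between the groups, at 21.7, 31.7 and 32.0 CPM and 35.8, 30.6 and 33.3 CPM. The cell cycle inhibitor gene Cdkn1a was at 69.6, 57.6 and 53.5 CPM and 28.7, 46.0 and 39.4 CPM (-0.66 ± 0.19, adjusted p = 0.166). It comes from a separate list of 22 p53 and senescence genes. Of these, 4 were higher and 5 lower without overlap (18.2% and 22.7%, against 10.9% and 10.2% of all genes). Mdm2, the gene of that list with the lowest p, was higher without overlap (0.41 ± 0.11, edgeR adjusted p = 0.164).

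Fibrosis genes mostly overlapped between 2 and 5 weeks. Of 17 collagens, 15 overlapped, with Col8a1 higher and Col15a1 lower (21.1% of all genes did not overlap). The median log2 change of the 17 was -0.12, and -0.41 length-adjusted. Col5a3, the collagen with the lowest p, overlapped and had a log2 change of -0.53 ± 0.17 (edgeR adjusted p = 0.175). Length-adjusted, its change was -0.82 ± 0.12 (edgeR adjusted p = 0.0627). Col1a1, the main scar collagen, was at 62.1, 179 and 48.0 CPM after 2 weeks and 29.3, 76.6 and 95.0 CPM after 5 weeks, against 224 to 462 CPM in the controls. Acta2, which marks activated stellate cells, was at 9.69, 18.1 and 7.88 CPM and 3.83, 8.60 and 8.43 CPM. Among 23 genes of activated stellate cells, 21 overlapped. The exceptions were Timp3, which was higher, and Des, an intermediate filament of stellate and muscle cells, at 13.5, 16.7 and 9.62 CPM and 3.78, 6.88 and 6.43 CPM (-1.22 ± 0.33, adjusted p = 0.158). Of 23 genes of TGF beta and activin signalling, 6 were higher and 1 lower without overlap (26.1% and 4.35%, against 10.9% and 10.2% of all genes), and none was called by edgeR. The median log2 change of the 23 was 0.09, and -0.09 length-adjusted. The 1 lower was Tgfb1, the main fibrogenic cytokine, at 11.2, 15.3 and 11.5 CPM and 7.39, 9.18 and 10.4 CPM (-0.49 ± 0.17, adjusted p = 0.18). The 6 higher were the receptor gene Tgfbr2, Smad2, Smad4 and Smad7, which act inside the cell, and the activin subunit genes Inhba and Inhbe. Inhbe, which is made mainly by hepatocytes, was at 11.3, 12.8 and 14.9 CPM and 36.5, 15.5 and 26.9 CPM (1.02 ± 0.32, adjusted p = 0.175). In whole liver, fewer cells of a type and less RNA per cell cannot be told apart.

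Acute phase and resident macrophage genes were lower at 5 weeks where their groups separated. Of 29 acute phase genes, most of them secreted by hepatocytes in inflammation, 0 were higher and 8 lower without overlap (0% and 27.6%, against 10.9% and 10.2% of all genes), and the median was -0.40, or -0.37 length-adjusted. At an unadjusted p under 0.05 in edgeR there were 1 and 10 (12.7% and 10.5% of all genes), and DESeq2 called 1 and 4 (3.69% and 2.24%). Lbp, which binds bacterial lipopolysaccharide, was at 137, 119 and 150 CPM after 2 weeks and 96.7, 84.4 and 71.5 CPM after 5 weeks (-0.68 ± 0.15, adjusted p = 0.138), and Hp, haptoglobin, had a log2 change of -0.80 ± 0.16. The serum amyloid gene Saa1 overlapped, at 709, 365 and 513 CPM and 111, 438 and 245 CPM.

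Of 18 Kupffer cell genes 0 were higher and 5 lower without overlap (0% and 27.8%, against 10.9% and 10.2% of all genes), among them Clec4f at 114, 115 and 149 CPM and 74.6, 106 and 83.0 CPM. The median of the 18 was -0.35, or -0.21 length-adjusted. At an unadjusted p under 0.05 in edgeR, 0 were higher and 5 lower (12.7% and 10.5% of all genes). DESeq2 called 0 and 2 (3.69% and 2.24%). The summed level of that list was 1017 to 1347 CPM after 2 weeks and 879 to 1003 CPM after 5 weeks, without overlap. The controls, at 878 to 1088 CPM, overlapped both groups. For neutrophil genes the sum was 45.1 to 89.9 CPM after 2 weeks and 24.3 to 34.6 CPM after 5 weeks. That list holds Cxcl1, a chemokine that other cells also make, at 10.9, 21.2 and 31.5 CPM and 9.94, 8.29 and 5.92 CPM. Without Cxcl1 the sum was 23.9 to 58.4 and 18.4 to 26.3 CPM, so the groups overlapped. The T and NK cell genes summed to 25.1 to 45.1 and 11.2 to 34.9 CPM, with overlap. Of 16 neutrophil genes 2 were lower and 0 higher without overlap (12.5% and 0%), and of 21 T and NK cell genes 3 and 0 (14.3% and 0%), with the lower shares near the 10.2% of all genes. The defining neutrophil gene Ly6g had at most 3 reads in a library. The part of these cells in the other differences was not tested.

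Splicing and RNA-binding genes were also apart in part: of 26, 11 were higher and 1 lower without overlap (42.3% and 3.85%, against 10.9% and 10.2% of all genes), with a median of 0.21 (length-adjusted 0.13). In 5-week replicate 23, 16 of the 26 were at their highest of the 6 rhCYGB libraries (32.4% of all genes were). Rbm3, an RNA-binding protein induced by cold, was at 23.3, 23.1 and 34.8 CPM after 2 weeks and 44.9, 48.8 and 48.5 CPM after 5 weeks (0.81 ± 0.18, adjusted p = 0.138), and the splicing factor gene Srsf5 at 60.9, 62.0 and 66.5 CPM and 155, 87.1 and 93.4 CPM (0.82 ± 0.20, adjusted p = 0.142).

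Lists of short transcripts had medians that changed under the length adjustment. What part the length trend has in these medians was not tested. The median of 38 ribosomal protein genes was -0.50, and -0.14 length-adjusted, and that of 39 nuclear genes of oxidative phosphorylation was -0.37, and 0.00 length-adjusted. No ribosomal protein gene had groups that did not overlap. The medians of the clock output, chaperone, acute phase and bile acid lists each kept their sign under the length adjustment, whereas that of 23 TGF beta and activin genes went from 0.09 to -0.09. None of the 51 lists held a gene called by edgeR, as none of the 3 called genes was on a list.

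**Figure D5:**
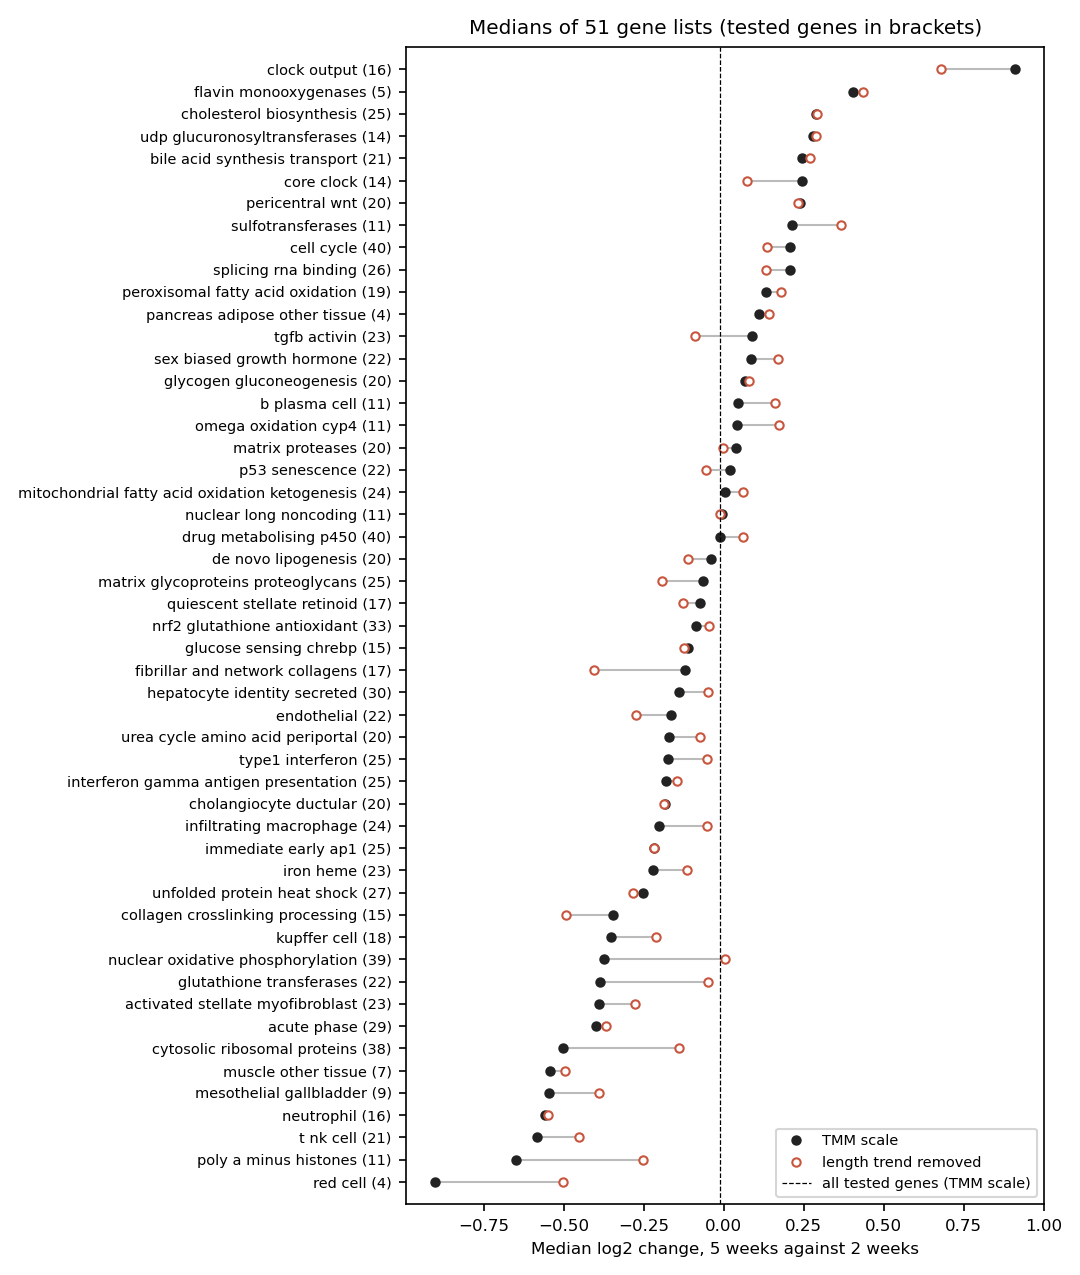
Median log2 change, 5 weeks minus 2 weeks (horizontal axis), of 51 gene lists with the number of tested genes in brackets. Filled points are on the TMM scale, open points have the length trend removed, and the dashed line is the median of all tested genes. Clock output genes lie farthest to the right, at 0.91, and ribosomal protein genes move from -0.50 to -0.14.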

How the data were processed

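Poly(A) RNA of 9 livers was read from both ends of strand-marked fragments, per the labels' protocols. The build mm10 and the tools HISAT2 2.1.0, StringTie 1.3.4d and FastQC 0.11.7 are those of the submitters' processing notes. The estimated counts per gene, and the FPKM values used in an alternative, are the authors' own (per the file headers). How counts were made from StringTie output is not given in the sources used here. Of the transcript counts, 99.3 to 99.6% lie within 1 read of FPKM times length times a constant. Near-identical genes and overlapping genes are uncertain as single genes.

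Genes were kept by filterByExpr (minimum count 10, minimum total 15). The 9 libraries entered 1 TMM-scaled fit with 3 groups and 6 residual degrees of freedom (edgeR 4.0.16, quasi-likelihood F test, R 4.3.3). The contrast was 5 weeks minus 2 weeks, adjusted by Benjamini-Hochberg over all 14731 genes, with a threshold of 0.05 for a call. The common biological coefficient of variation was 24.9%, and the SE is the log2 change divided by the square root of F. Samples were grouped by their labels, and totals ran from 55655727 to 87289945 estimated reads. The length adjustment removed a natural spline (5 degrees of freedom) over log2 of the count-weighted transcript length from each library. The scripts were tested on simulated data.

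Alternatives were upper quartile and total scaling, no filter, DESeq2 1.42.0, limma 3.58.1 (voom with sample quality weights, and log2(FPKM + 1) or log2(FPKM + 0.1)), only the rhCYGB libraries, the length adjustment, and leaving out each library. Named genes were the 15 leading genes in each direction (called genes first, then the lowest p, mean level 1 CPM or more, groups apart), a panel of 40 genes and up to 4 genes of each list. Gene models with Gm, Rik or LOC symbols were left out of the leading genes. The members, the panel and the 51 lists (1095 symbols, 1082 matched) were chosen with earlier results of these data known. No panel gene was called by edgeR, and 30 of the 40 overlapped between the groups. Promoters came from RefSeq (GRCm38.p6). Some genes are not reported here.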

Additional observations from a re-analysis of the deposited data

How the results depend on the processing

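The 3 called genes were the same 3 under upper quartile scaling, scaling by totals and no filter. DESeq2 called 788 genes (490 higher, 298 lower; 1448 had no adjusted p), and limma-voom with quality weights 3978 (1830 and 2148), with a weight of 4.63 for 5-week replicate 28 and 0.30 for replicate 23. The FPKM scale gave 3 genes with a pseudocount of 1 (1 higher, 2 lower) and 4 with 0.1 (2 lower). With only the 6 rhCYGB libraries there were 0 (0 higher, 0 lower). Removing the length trend gave 7 (4 and 3). In alternatives chosen after seeing the data, removing it without 5-week replicate 27 gave 13 (11 and 2), and without replicate 23 gave 1 (1 and 0). Leaving out 1 library gave 1 to 1889 genes, 1 to 973 higher and 0 to 916 lower. The highest of each came without 5-week replicate 27; without 2-week replicate 19 there were 11, and without each TAA library or 5-week replicate 23 only Mcm10. In these comparisons the cause was not tested. Abcd2 lost its call in 11 alternatives, Tjp3 in 9 and Mcm10 in 3. None of the 111 genes whose log2 change was recomputed changed sign in the 20 alternatives. Many of them were picked from these same data for groups that did not overlap, which made a change of sign unlikely beforehand. Genes with overlapping groups such as Nr1d1, Cygb, Col1a1 and Mki67 were not among the 111. Under scaling by totals the median change over all genes shifted by 0.11 (log2). No paired analysis was possible because the groups share no replicate numbers. Counts limit genes under about 1 CPM, such as Npas2 and Cdc6.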

Other observations

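Some genes were at or near 0 in some libraries and well expressed in others of the same group. Counting genes with at least 10 CPM in 1 library and at most 0.1 CPM in another of the same group, there were 7 in TAA, 7 in the 2-week group and 10 in the 5-week group. Adnp, which encodes a transcription factor, was at 0, 0.038 and 0.146 CPM after 2 weeks and at 26.3, 0 and 30.8 CPM after 5 weeks. Dpm1-adnp, a readthrough gene model that covers the same locus on chromosome 2 (168180965 to 168230379), was at 56.4, 57.8 and 57.8 CPM after 2 weeks and at 14.4, 59.0 and 0 CPM after 5 weeks. Dpm1-adnp was high where Adnp was at or near 0, in all 3 libraries of the 2-week group and in 5-week replicate 27, so reads of the 2 gene models cannot be told apart here. Their sum was 56.4, 57.9 and 57.9 CPM after 2 weeks and 40.7, 59.0 and 30.8 CPM after 5 weeks. Dpm1, the other gene that the readthrough model is named for, was at 13.1, 6.33 and 11.4 CPM after 2 weeks. After 5 weeks it was higher without overlap, at 43.1, 15.7 and 48.9 CPM. The sum leaves Dpm1 out, so it is not the level of the whole locus and gives no direction for it.

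The near-identical hemoglobin genes Hbb-b1 and Hbb-bs, whose loci overlap, were high in different libraries. Hbb-b1 was at 0.207, 0.063 and 0.164 CPM after 2 weeks and at 90.5, 124 and 0.091 CPM after 5 weeks, and Hbb-bs at 161, 112 and 136 CPM and at 0.247, 0.367 and 61.2 CPM. Their sum was 161, 112 and 136 CPM and 90.7, 125 and 61.3 CPM, and the groups overlapped. Hba-a1 was at 2.03 to 2.24 CPM after 2 weeks and at 1.43, 80.6 and 0.792 CPM after 5 weeks, and Hba-a2 at 108, 77.3 and 80.9 CPM and at 61.6, 0.077 and 38.8 CPM. The sum of this pair was 110, 79.5 and 83.0 CPM and 63.0, 80.7 and 39.6 CPM, also with overlap. Reads of the copies in each pair cannot be told apart here.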
